A study of Capsicum annuum with 78 samples.

Results

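HSP21 is a small heat shock protein that is encoded in the nucleus and works in the chloroplast. Small heat shock proteins bind proteins that begin to unfold and keep them from clumping without using ATP, until other chaperones refold them. In Arabidopsis, HSP21 is known for its build-up in heated leaves, where it binds thylakoid membranes and protects the transcription machinery of the plastid, and heat shock factors are known to switch such genes on. The pepper gene described here is the row of the count table whose identifier ends in scaffold303.8 (TC.CA.PGAv.1.6.scaffold303.8), labelled HSP21 after its Arabidopsis match in a heatmap of the leading heat genes. It is 1 gene of the 35884 in the table, and one of the 19588 that passed the filter on low counts. Because the gene stood in a list of leading heat genes, its difference between heat and mock leaves is given as a description and without a p-value. The comparisons that were not ranked in that list were tested. Those that use heat or mock libraries share them with the comparison that chose the gene, so their tests are not independent of that choice.

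The leaves came from pepper (Capsicum annuum) plants of the cultivar CM334, aged 6 weeks and grown at 24 °C under a daily cycle of light and dark. The clock times of the harvests are not given. Plants were moved to heat (40 °C) or cold (10 °C), or were given 50 mL of 400 mM mannitol (an osmotic stress without salt) or of 400 mM NaCl. Leaves of each stress were taken after 3 h, 6 h, 12 h, 24 h and 72 h, and mock leaves at the same times and also at 0 h. This gives 26 groups of 3 biological replicates, each replicate pooling leaves of 4 plants. The gene counts of a library summed to between 4310398 and 7667094. Their median was 5077986 in heat, 5811978 in cold, 6419477 in mannitol, 6340577 in NaCl and 6252996 in the mock. Levels are given as raw counts or as CPM, the counts scaled by TMM to a common library size, which serve to compare libraries for this gene and not to compare genes, since gene lengths were not used. Each library correlated over genes with the mean of its other replicates at 0.978 or more on the log2 CPM scale, so no library stood apart as a whole. The count table carries no gene names, and leaf markers and other heat shock genes were not analysed here.

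HSP21 separated heat from everything else. In the 15 heat libraries the count lay between 6155 and 49403, with a median of 21191, while the largest count in the 63 other libraries was 467. On the CPM scale the lowest heat library had 1052 and the highest library outside heat had 67.9, a ratio of 15.5. The group means spanned 18280-fold, with heat at 24 h highest and NaCl at 3 h lowest. In leaf tissue sequenced in bulk, a change in the number of cells that hold the transcript and a change in the amount per cell cannot be told apart.

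**Figure D1:**
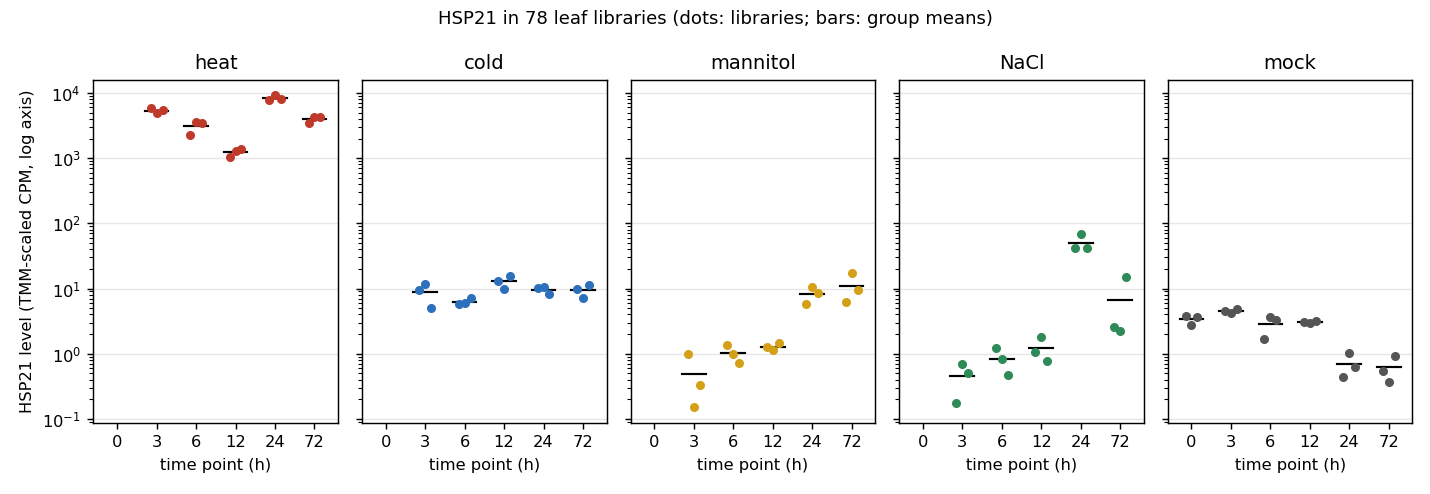
HSP21 level in each library (y axis, TMM-scaled CPM, log axis) by time point in hours (x axis), in a panel per treatment, with dots for libraries and black bars for group means. The 15 heat libraries sit at 1052 CPM or more and no other library exceeds 67.9 CPM.

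At 3 h, the earliest heat harvest, HSP21 had 30285, 25771 and 29715 counts in heat leaves, against 28, 22 and 26 in mock leaves. At 6 h heat leaves had 14896, 21191 and 19078 counts, against 11, 22 and 23 in mock leaves. All heat libraries of these time points were above all mock libraries, and every 3 h heat library was above every 6 h heat library. At 12 h heat leaves had 6155, 6516 and 7977 counts, against 21, 18 and 22 in mock leaves. At 24 h they had 46234, 49403 and 41167, against 3, 6 and 4 in mock leaves. The 12 h libraries were the lowest of the heat series and the 24 h libraries the highest. At 72 h heat leaves had 18617, 22487 and 21051 counts, against 3, 2 and 5 in mock leaves.

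The log2 fold change of HSP21 in heat against time-matched mock leaves was 10.22 (SE 0.35) at 3 h and 10.08 (SE 0.35) at 6 h. It was 8.66 (SE 0.34) at 12 h, then 13.54 (SE 0.42) at 24 h and 12.61 (SE 0.42) at 72 h. Among the 19588 genes tested this was the 4th largest log2 fold change at 3 h and the largest at each later time point. For comparison, 13% of the tested genes were called higher in heat at 3 h and 11.8% at 6 h, then 9.58% (12 h), 11.5% (24 h) and 11.1% (72 h), where a call needs both an adjusted p-value below 0.05 and a log2 fold change above 1 or below -1. The 24 h and 72 h values rest on small mock counts, 13 and 10 reads over 3 libraries. The ratio of scaled counts was 12310 at 24 h, with a 95% exact interval from counting error alone of 7198 to 23120, and 6464 at 72 h, with an interval of 3515 to 13481.

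Within heat leaves HSP21 rose and fell over time. The list of heat genes ranked heat against mock and not these steps, so they were tested. The steps use the same heat libraries that entered that list, so their tests are not independent of the choice of the gene. The mean level was 5390 ± 489 CPM (SD, n = 3) at 3 h and 3128 ± 717 CPM at 6 h. It was lowest at 12 h with 1249 ± 179 CPM and highest at 24 h with 8359 ± 747 CPM, and was 3978 ± 478 CPM at 72 h. Because of the daily cycle of light and dark, hours of heat and time of day cannot be told apart at the steps up to 24 h. At 6 h the log2 change from 3 h was -0.79 (SE 0.22), with an adjusted p-value of 0.00378 by the quasi-likelihood test of edgeR, but it missed the limit on the fold change. At 12 h HSP21 was lower than at 6 h by a log2 change of -1.32 (SE 0.22, edgeR adjusted p = 2.49e-06, with 3.42% of tested genes called lower). At 24 h it was 2.74 higher than at 12 h on the log2 scale (SE 0.23, edgeR adjusted p = 1.12e-15, with 5.31% of genes called higher). At 72 h the log2 change from 24 h was -1.07 (SE 0.22, edgeR adjusted p = 0.000332, with 1.5% of genes called lower). That last call passed the fold limit narrowly, and it was lost without heat 24 h replicate 2 or heat 72 h replicate 1, when the log2 change was as small as -0.98. The ranges of the replicates did not overlap at any of these 4 steps. Only heat at 6 h and at 72 h shared part of their ranges.

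HSP21 took 0.888% of all gene counts in heat leaves at 24 h, and its rank by reads then lay between 3 and 4 among the genes of a library. At 12 h its share was 0.149% and its rank by reads lay between 45 and 65. These ranks count reads and do not compare levels between genes of different length. Replicates of heat leaves differed by a coefficient of variation of 8.93% at 24 h to 22.9% at 6 h, far above the counting error of 1.21% or less. Over all groups edgeR estimated a biological coefficient of variation of 26.1% for HSP21, against 9.60% for the median gene.

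The mock leaves set the baseline, and it moved. HSP21 had 18, 15 and 18 counts in mock leaves at 0 h, and 28, 22 and 26 at 3 h. It had 11, 22 and 23 counts at 6 h and 21, 18 and 22 at 12 h, but 3, 6 and 4 at 24 h and 3, 2 and 5 at 72 h. The last 2 time points were below every earlier mock library. Against 0 h the log2 fold change was 0.42 (SE 0.47, edgeR adjusted p = 0.629) at 3 h, -0.22 (SE 0.49, adjusted p = 0.765) at 6 h and -0.13 (SE 0.49, adjusted p = 0.873) at 12 h. The log2 fold change against 0 h was -2.27 (SE 0.67, edgeR adjusted p = 0.0128) at 24 h and -2.41 (SE 0.71, edgeR adjusted p = 0.00885) at 72 h, a level 4.82-fold and 5.32-fold lower. The call at 24 h was lost without mock 24 h replicate 1. Of all tested genes, 2.69% were called lower at 24 h and 3.49% at 72 h against 0 h. A comparison of HSP21 with time-matched mock leaves therefore holds the course of the mock too, so the comparison with mock leaves at 0 h, chosen after the mock levels had been seen, is given beside it.

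**Figure D2:**
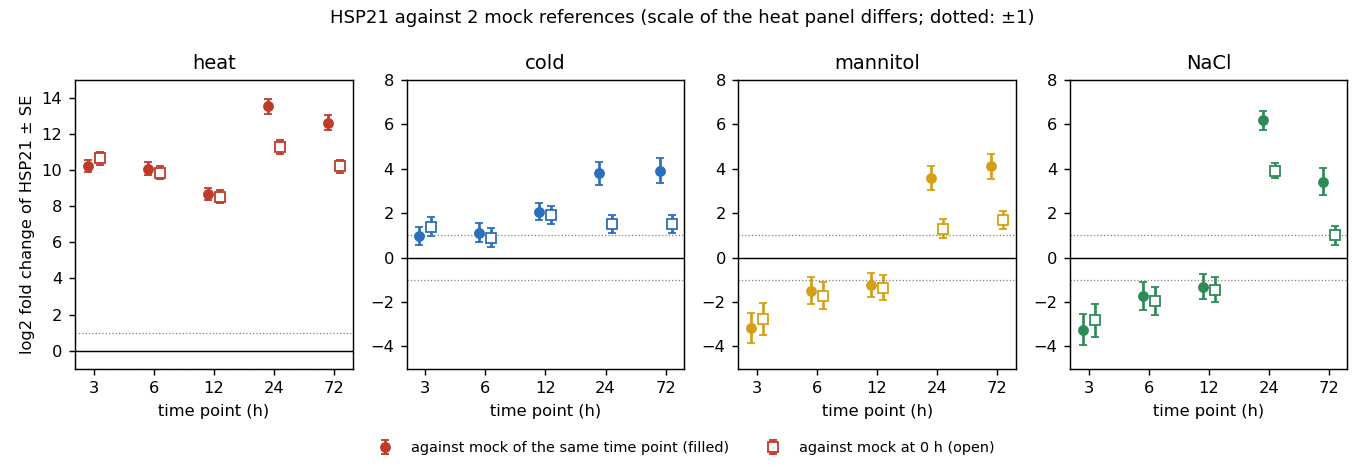
Log2 fold change of HSP21 with its SE (y axis) by time point in hours (x axis), in a panel per stress, against time-matched mock leaves (filled) and against the mock at 0 h (open), with dotted lines at ±1. At 24 h and 72 h the open symbols lie lower than the filled ones in all 4 stresses, as in NaCl at 24 h with 3.91 against 6.18.

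In cold leaves HSP21 stayed above the mock at a low level, between 24 and 78 counts. At 3 h it had 50, 60 and 24 counts in cold leaves, against 28, 22 and 26 in mock leaves. At 6 h it had 31, 33 and 40 counts in cold leaves, against 11, 22 and 23 in mock leaves, and at 12 h 78, 51 and 67 against 21, 18 and 22. On the CPM scale every cold library was above every mock library of its time point, at 3 h narrowly. At 24 h HSP21 had 59, 62 and 50 counts in cold leaves, against 3, 6 and 4 in mock leaves. At 72 h it had 72, 51 and 67 counts in cold leaves, against 3, 2 and 5 in mock leaves. The cold counts hardly changed between these times, while the mock counts were smaller than before.

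The log2 fold change of HSP21 in cold against mock leaves was 0.97 at 3 h (SE 0.39, edgeR adjusted p = 0.058) and did not pass the test, with 3.09% of genes called higher. Without cold 3 h replicate 3, the library with 24 counts, it was 1.28 and was called. At 6 h HSP21 was higher by 1.12 (SE 0.43, edgeR adjusted p = 0.0303, with 8.47% of genes called higher), but the call was lost when mock 6 h replicate 1 or any of the 3 cold libraries was left out, with values down to 0.81. At 12 h it was higher by 2.06 (SE 0.38, edgeR adjusted p = 5.89e-06, with 12.8% of genes called higher). At 24 h the log2 fold change was 3.78 (SE 0.53, edgeR adjusted p = 1.19e-08, with 13.1% of genes called higher) and at 72 h it was 3.90 (SE 0.56, edgeR adjusted p = 1.41e-08, with 16.2% called higher). Against the mock at 0 h these last differences were 1.51 at 24 h and 1.49 at 72 h, and both were called. Within cold leaves the level at 12 h was 1.03 above that at 6 h on the log2 scale (SE 0.35, edgeR adjusted p = 0.043, with 1.84% of genes called higher). The log2 change of the cold level at 72 h against 3 h was 0.10 (SE 0.34, edgeR adjusted p = 0.812).

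Mannitol gave HSP21 a course in opposite directions, below the mock early and above it late. At 3 h it had 6, 1 and 2 counts in mannitol leaves, against 28, 22 and 26 in mock leaves. At 6 h it had 9, 7 and 5 counts in mannitol leaves, against 11, 22 and 23 in mock leaves, and at 12 h 11, 7 and 11 against 21, 18 and 22. No mannitol library reached a mock library at these time points on the CPM scale. At 24 h HSP21 had 34, 58 and 44 counts in mannitol leaves, against 3, 6 and 4 in mock leaves. At 72 h it had 33, 96 and 52 counts in mannitol leaves, against 3, 2 and 5 in mock leaves. Here every mannitol library was above every mock library, those at 0 h included.

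At 3 h HSP21 was lower in mannitol than in mock leaves, with a log2 fold change of -3.17 (SE 0.67, edgeR adjusted p = 0.00046), a direction in which 0.975% of the tested genes were called. Without mannitol 3 h replicate 1, which held 6 of the 9 counts, the value was -4.15 and was still called. The ratio of scaled counts was 0.107, with a 95% exact interval from counting error of 0.0470 to 0.214. The log2 fold change was -1.48 at 6 h (SE 0.59, edgeR adjusted p = 0.0797) and -1.23 at 12 h (SE 0.54, edgeR adjusted p = 0.0874), and neither passed the test, with 1.33% and 2.47% of genes called lower. Both passed in DESeq2, in a fit of mannitol and mock libraries alone and against the mock at 0 h. At 24 h HSP21 was higher by 3.57 (SE 0.55, edgeR adjusted p = 2.12e-07, with 7.02% of genes called higher), and at 72 h by 4.11 (SE 0.56, edgeR adjusted p = 2.77e-08, with 6.59% called higher). Against the mock at 0 h the differences were 1.3 and 1.70, both called. Mannitol leaves taken alone were 2.66 higher at 24 h than at 12 h (SE 0.47, edgeR adjusted p = 3.07e-06, with 7.05% of genes called higher) and 4.44 higher at 72 h than at 3 h (SE 0.56, adjusted p = 1.53e-09, with 7.76%).

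NaCl leaves were close to mannitol leaves in HSP21 up to 12 h and above them at 24 h. At 3 h HSP21 had 1, 4 and 3 counts in NaCl leaves, against 28, 22 and 26 in mock leaves. At 6 h it had 8, 6 and 3 counts in NaCl leaves, against 11, 22 and 23 in mock leaves, and at 12 h 8, 13 and 5 against 21, 18 and 22. NaCl at 3 h was the lowest of the 26 groups, with 0.457 ± 0.261 CPM (SD, n = 3). At 24 h HSP21 had 280, 467 and 278 counts in NaCl leaves, against 3, 6 and 4 in mock leaves. At 72 h it had 15, 13 and 95 counts in NaCl leaves, against 3, 2 and 5 in mock leaves. Replicates 1 and 2 at 72 h were close to each other, and replicate 3 was far above both.

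At 3 h HSP21 was lower in NaCl than in mock leaves, with a log2 fold change of -3.24 (SE 0.69, edgeR adjusted p = 0.00016, with 2.73% of genes called lower). The ratio of scaled counts was 0.102, with a 95% exact interval from counting error of 0.0424 to 0.211. At 6 h the log2 fold change was -1.74 (SE 0.62, edgeR adjusted p = 0.0261, with 3.39% of genes called lower), a call that was lost without mock 6 h replicate 2 or 3 or NaCl 6 h replicate 2 or 3, with values up to -1.5. At 12 h it was -1.31 (SE 0.56, edgeR adjusted p = 0.062, with 3.59% of genes called lower) and did not pass the test, but it passed in DESeq2, against the mock at 0 h, and without NaCl 12 h replicate 2. At 24 h HSP21 was higher by 6.18 (SE 0.43, edgeR adjusted p = 2.62e-19), a 72.5-fold difference and the 59th largest of the 19588 genes tested, with 12.8% of genes called higher. Against the mock at 0 h the NaCl leaves at 24 h were higher by 3.91 (SE 0.34, edgeR adjusted p = 3.73e-15). At 72 h HSP21 was higher than in the mock by 3.41 (SE 0.60, edgeR adjusted p = 1.13e-05, with 3.68% of genes called higher). Without NaCl 72 h replicate 3 that value was 1.92 and was still called. Against the mock at 0 h, with all NaCl libraries, it was 1.0 and was not called. NaCl 72 h replicates 1 and 2 had 2.53 and 2.22 CPM, below every mock library at 0 h (2.74 to 3.73 CPM). Only replicate 3, with 15.1 CPM, was above them.

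NaCl leaves taken alone were 5.35 higher on the log2 scale at 24 h than at 12 h (SE 0.38, edgeR adjusted p = 9.22e-19, with 7.05% of genes called higher). At 72 h HSP21 in NaCl leaves was lower than at 24 h, with a log2 change of -2.91 (SE 0.30, edgeR adjusted p = 4.8e-12, with 4.79% of genes called lower), and still 3.82 above its level at 3 h (SE 0.63, adjusted p = 1.08e-06, with 6.09% called higher). These SEs rest on a spread estimated over all groups, while the NaCl replicates at 72 h had a coefficient of variation of 111%. The steps of NaCl leaves taken alone were not refitted with a library left out. The library of NaCl at 72 h with 95 counts correlated with the mean of the other replicates at 0.986 over all genes, close to the median of 0.987 over the 78 libraries. A correlation over all genes does not show whether single genes such as HSP21 stand apart in that library.

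With mock leaves at 0 h as the common reference, HSP21 was called in 13 of the 15 groups of cold, mannitol and NaCl leaves, higher in 7 and lower in 6. In heat, given as a description, the log2 fold change lay between 8.53 at 12 h and 11.27 at 24 h. The share of genes called higher in these 5 heat comparisons was 13.5% at 3 h and 15.3% at 6 h, followed by 14.1%, 9.81% and 9.59%. In cold it was higher at 3 h by 1.39, with 1.84% of genes called higher, at 12 h by 1.93 with 9.81%, at 24 h with 12% and at 72 h with 15.7%, but not called at 6 h with 0.90. In mannitol it was lower at 3 h by a log2 fold change of -2.75, with 2.14% of genes called lower, at 6 h by -1.71 with 6.96% and at 12 h by -1.36 with 7.94%. In NaCl it was lower at 3 h with -2.81 and 4.59% of genes called lower, at 6 h with -1.97 and 8.71%, and at 12 h with -1.44 and 7.84%. The later rises passed in mannitol at 24 h and 72 h, with 4.91% and 8.32% of genes called higher, and in NaCl at 24 h with 9.92%. The lower level at 3 h in both osmotic stresses and the higher level at 24 h in both were called against either reference, while NaCl at 72 h was called higher against time-matched mock leaves and not against the 0 h mock.

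Whether the effect of a stress, taken against time-matched mock leaves, changed over time was tested in cold, mannitol and NaCl by 15 differences of effects, of which 6 were called. In heat these differences rest on the values that chose the gene, so they are a description without a p-value. The heat effect at 24 h was 4.88 above that at 12 h on the log2 scale (SE 0.66) and that at 72 h was 2.40 above that at 3 h (SE 0.71), steps at which 4.41% and 10.2% of genes were called in that direction. Between 12 h and 24 h the effect grew in mannitol by 4.80 (SE 0.79, edgeR adjusted p = 2.78e-05, with 1.14% of genes called) and in NaCl by 7.49 (SE 0.76, adjusted p = 1.1e-11, with 4.83%). In cold that step was 1.72 (SE 0.74, edgeR adjusted p = 0.0528) and was not called. It was called in DESeq2, in a fit of cold and mock libraries alone, with library totals, with a replicate block and without cold 12 h replicate 3. In cold leaves taken alone, without the mock, the change from 12 h to 24 h had the other sign, -0.42 (SE 0.32, edgeR adjusted p = 0.31), and was not called. The effect at 72 h exceeded that at 3 h in cold by 2.93 (SE 0.76, edgeR adjusted p = 0.000692, with 18.2% of genes called). In mannitol it did so by 7.28 (SE 0.87, edgeR adjusted p = 1.34e-08, with 2.64% of genes called) and in NaCl by 6.65 (SE 0.92, adjusted p = 1.69e-07, with 2.99%). These values were 8.21 without mannitol 3 h replicate 1 and 5.19 without NaCl 72 h replicate 3, and both were still called. The fall of the NaCl effect between 24 h and 72 h was -2.77 (SE 1.13, edgeR adjusted p = 0.0498, with 7.69% of genes called lower), at the edge of the limit. That call was lost in 8 of 12 fits that left out a library, with values between -2.96 and -2.30, without mock 24 h replicate 1 or 3, mock 72 h replicate 1, 2 or 3, NaCl 24 h replicate 2, or NaCl 72 h replicate 1 or 2. Without NaCl 72 h replicate 3 it was -4.19 and was called. These differences hold the fall of the mock after 12 h. In the leaves of the stress alone the change from 3 h to 72 h was -0.44 in heat and 0.10 in cold, and neither was called.

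The stresses were also set against each other at the same time point, which needs no mock. NaCl and mannitol leaves overlapped in HSP21 at 3, 6 and 12 h, with log2 fold changes of -0.07 (SE 1.10, edgeR adjusted p = 0.984), -0.26 (SE 0.77, adjusted p = 0.88) and -0.07 (SE 0.65, adjusted p = 0.981). The counts are too small there to show a difference of 2-fold. At 24 h HSP21 was higher in NaCl than in mannitol leaves by 2.61 (SE 0.29, edgeR adjusted p = 9.11e-11, with 4.84% of genes called higher). At 72 h the difference was -0.69 (SE 0.34, edgeR adjusted p = 0.155) with all libraries, and -2.16, called lower, without NaCl 72 h replicate 3.

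Against cold leaves, HSP21 in NaCl leaves was lower by a log2 fold change of -4.21 at 3 h (SE 0.61, edgeR adjusted p = 4.92e-08, with 5.4% of genes called lower), -2.86 at 6 h (SE 0.55, adjusted p = 1.16e-05, with 10%) and -3.37 at 12 h (SE 0.45, adjusted p = 2.69e-09, with 11.4%). At 24 h the direction was the other way, with NaCl leaves 2.40 above cold leaves (SE 0.28, edgeR adjusted p = 1.01e-10, with 12% of genes called higher). At 72 h the difference was -0.49 (SE 0.34, edgeR adjusted p = 0.21), and -2.0, called lower, without NaCl 72 h replicate 3. Mannitol leaves were also lower than cold leaves, by -4.14 at 3 h (SE 0.59, edgeR adjusted p = 7.37e-08, with 3.01% of genes called lower), -2.60 at 6 h (SE 0.52, adjusted p = 3.34e-05, with 9.82%) and -3.29 at 12 h (SE 0.44, adjusted p = 2.56e-09, with 12.4%). The 3 h value was -5.16, and still called, without mannitol 3 h replicate 1. At 24 h and 72 h mannitol and cold leaves overlapped, with log2 fold changes of -0.22 (SE 0.34, edgeR adjusted p = 0.615) and 0.20 (SE 0.32, adjusted p = 0.594).

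**Figure D3:**
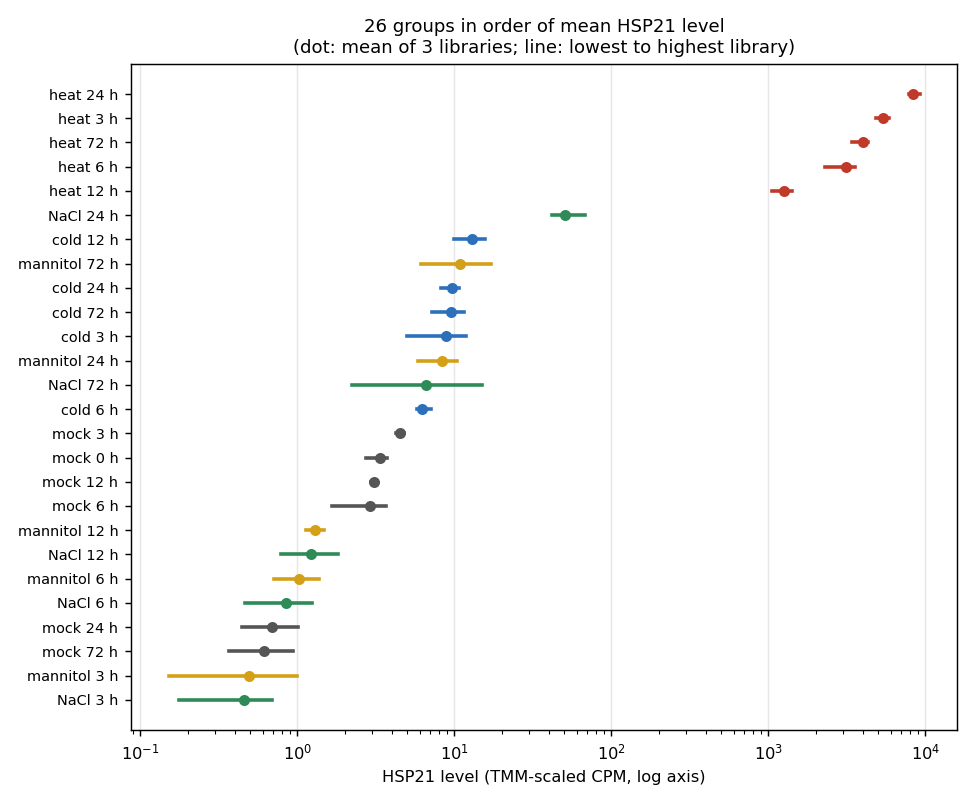
The 26 groups in order of their mean HSP21 level (x axis, TMM-scaled CPM, log axis), with a dot for the mean of 3 libraries and a line from the lowest to the highest library. Heat fills the first 5 places, NaCl at 24 h stands alone with 50.7 CPM, and the ranges below it overlap in most neighbouring pairs.

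In the order of group means, the heat groups came first (24, 3, 72, 6, 12 h), followed by NaCl at 24 h with 50.7 ± 14.9 CPM (SD, n = 3), which overlapped no other group. Next came a block between 12.9 ± 2.91 CPM in cold at 12 h and 6.26 ± 0.711 CPM in cold at 6 h. It held the 5 cold groups, mannitol at 72 and 24 h and NaCl at 72 h, and each group in it overlapped its neighbours within the block. NaCl at 72 h stood in the block through replicate 3 (15.1 CPM), since its replicates 1 and 2 had 2.53 and 2.22 CPM. Its range therefore also overlapped the mock at 3, 0, 12 and 6 h. The mock at 3, 0, 12 and 6 h followed, between 4.5 ± 0.276 and 2.88 ± 1.06 CPM. The lowest block held mannitol and NaCl from 3 to 12 h with the mock at 24 and 72 h, from 1.29 ± 0.169 CPM in mannitol at 12 h downward. Of the 25 neighbouring pairs, 17 overlapped between their lowest and highest libraries and 8 did not.

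The likeness of other genes was measured by Pearson's correlation of group means on the log2 CPM scale over the 26 groups, as a description, since the groups share the heat libraries. Of 19587 other tested genes, 19 had a correlation with HSP21 above 0.9. The most like was scaffold710.59 (TC.CA.PGAv.1.6.scaffold710.59), with 0.96, and the next was scaffold862.17 (TC.CA.PGAv.1.6.scaffold862.17), with 0.94. The correlation depended on heat. Over the 21 groups without heat scaffold710.59 had 0.74 and ranked 5th, scaffold862.17 had 0.68 and ranked 31st, and no gene exceeded 0.84. The most like gene there was a different one. That same gene was also the most like by Spearman's correlation over the 26 groups, with 0.88.

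Scaffold710.59 shared the early and late peaks of HSP21 in heat and its peak in NaCl at 24 h. It had 2557, 3080 and 1858 counts in heat leaves at 24 h, against 9, 3 and 3 in mock leaves. In NaCl leaves at 24 h it had 111, 187 and 138 counts. In heat its lowest group was at 6 h with 49.5 ± 17.6 CPM (SD, n = 3), while HSP21 was lowest at 12 h. At 3 h it had 4, 9 and 7 counts in NaCl leaves, against 4, 5 and 5 in mock leaves, and was not called, where HSP21 was lower. The difference between these changes was not tested. Scaffold862.17 was also higher in heat than in the other groups, with a far smaller span, between a mean of 27.1 CPM in heat leaves at 72 h and 7.51 CPM in mock leaves at 24 h. Its course within heat differed, with its lowest heat mean at 6 h (17.7 CPM). At 3 h it had 9.35 CPM in mannitol and 10.9 CPM in NaCl leaves, against 7.87 CPM in mock leaves, where HSP21 was lower. The genes with the most opposite course were scaffold353.9 (r = -0.93) and scaffold164.4 (r = -0.92). Scaffold353.9 had 35, 28 and 37 counts in heat leaves at 24 h, against 281, 199 and 253 in mock leaves.

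**Figure D4:**
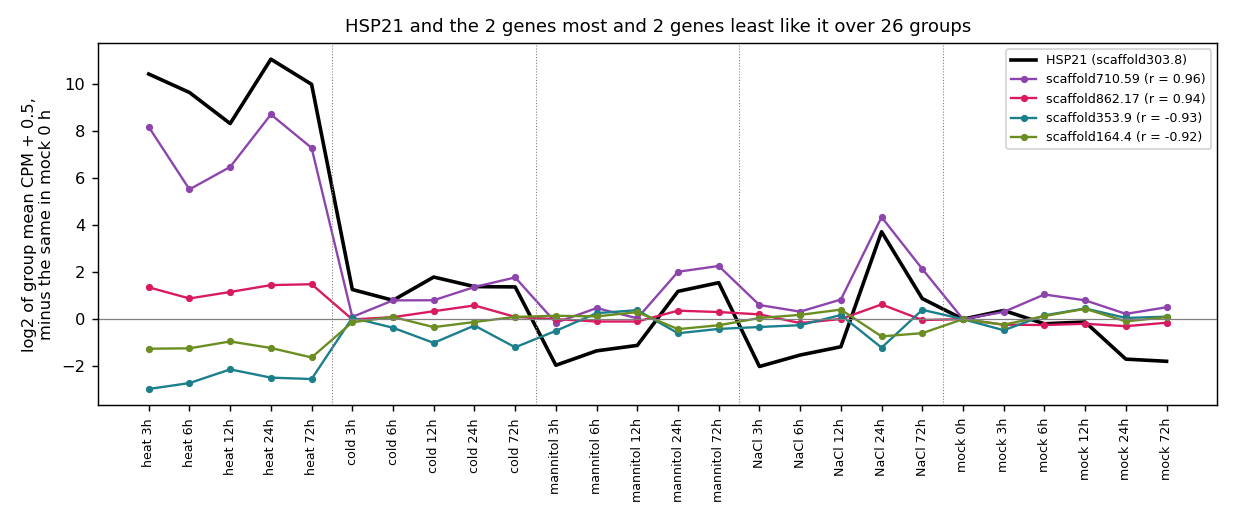
Group mean level of HSP21, of the 2 genes most like it and of the 2 least like it, as log2 of the mean CPM plus 0.5 relative to mock leaves at 0 h (y axis), over the 26 groups (x axis). HSP21 and scaffold710.59 peak in heat and again in NaCl at 24 h, while scaffold353.9 and scaffold164.4 are low in heat.

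The identifier places HSP21 on scaffold303 with the running number 8, and the table holds 84 genes of that scaffold, of which 60 besides HSP21 were tested. In heat the largest log2 fold change among them was 3.21, against 8.66 or more for HSP21. HSP21 was picked from leading heat genes and had the largest log2 fold change of all 19588 tested genes from 6 h on. No other gene of the scaffold could match it there, so this contrast is a description and says nothing particular about the scaffold. Over the 20 comparisons of a stress with its mock, 17.7% of the tests on these 60 genes gave a call, against 15.4% on average over all tested genes. The gene numbered directly before HSP21, scaffold303.7, held between 0 and 11 counts in every library and was not called in heat at any time point. The gene directly after it, scaffold303.9, had 185, 208 and 168 counts in heat leaves at 24 h, against 186, 171 and 184 in mock leaves. In heat its log2 fold change was 0.56 at 3 h (edgeR adjusted p = 1.83e-05) and 0.61 at 6 h (adjusted p = 3.39e-06). It was 0.28 at 12 h (edgeR adjusted p = 0.032), 0.28 at 24 h (adjusted p = 0.0311) and 0.31 at 72 h (adjusted p = 0.0129). All of these stayed under the fold limit, so none was called. In NaCl leaves at 24 h scaffold303.9 had 370, 420 and 392 counts, and was higher than in the mock by 1.05 on the log2 scale (SE 0.11, edgeR adjusted p = 7.37e-13). As background, running numbers give the order of gene models in the annotation, and distances were not used here. Reads of near-identical copies of small heat shock genes may have been split or dropped by the counting, and the strand setting of the counting is not given in the sources used here, so the levels of HSP21 are those of this gene model alone.

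**Figure D5:**
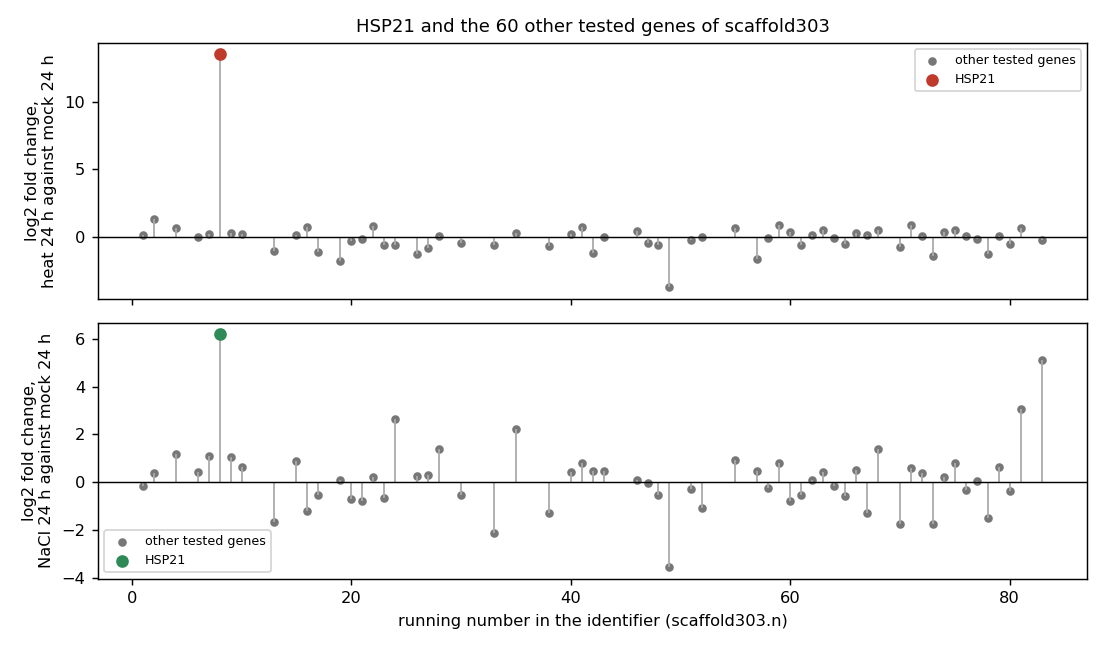
Log2 fold change against mock leaves at 24 h (y axis) of HSP21 and the 60 other tested genes of scaffold303 by their running number (x axis), in heat (upper panel) and NaCl (lower panel). HSP21 stands at 13.54 in heat and 6.18 in NaCl, and its neighbours scaffold303.7 and scaffold303.9 at 0.19 and 0.28 in heat.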

How the data were processed

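Strand-specific RNA-seq libraries of 78 leaf samples were analysed. Per the labels and methods, the authors trimmed reads with cutadapt 1.9.1, checked them with FastQC 0.11.5, aligned them to the CM334 genome with HISAT2 and counted them per gene with featureCounts 1.5.2. The deposited values are these raw counts, without normalization, for 35884 genes. Of these, 28125 had at least 1 count in some library. All 78 columns were mapped to samples by their titles.

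The tests were run in edgeR 4.0.16 (limma 3.58.1, R 4.3.3). The filterByExpr filter with the groups as its factor left 19588 genes. TMM gave the scaling, and 1 quasi-likelihood model with a level per treatment and time took in every library, which left 52 residual degrees of freedom. Adjustment followed Benjamini and Hochberg over the tested genes of each comparison, and a call needed an adjusted p-value below 0.05 together with a log2 fold change above 1 or below -1. The SE is the log2 fold change divided by the square root of the F statistic. A prior count of 2 entered the log2 CPM for correlations. Count ratios have 95% exact (Clopper-Pearson) intervals, which cover counting error only. No pair of replicates agreed within sampling noise (chi-square per degree of freedom of 1.89 or more).

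The gene, its comparisons and the rule for the other named genes were chosen with earlier results of these data known. That rule took the 2 tested genes with the highest and the 2 with the lowest correlation with HSP21, and the genes numbered next to it on its scaffold. Of the 48341 genes of the RefSeq table none matched an identifier, so no sequence, length or pathway list was used here. Alternatives were DESeq2 1.42.0, separate fits for each stress, a block for the replicate number, no filter or 1 CPM in 3 libraries, RLE scaling, library totals, a robust fit, the adjusted p-value alone and each library left out in turn. After seeing the data, 2 more were chosen, the mock at 0 h as reference and stressed leaves without the mock.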

Additional observations from a re-analysis of the deposited data

Results flagged for a closer look

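The effect of a stress on HSP21, taken against time-matched mock leaves, differed between time points in 6 of 15 tests of that difference in cold, mannitol and NaCl by edgeR's quasi-likelihood test, all on the log2 scale. The effect of heat was 4.88 larger at 24 h than at 12 h and 2.40 larger at 72 h than at 3 h, which is a description, since heat against mock chose the gene. The effect of cold was 2.93 larger at 72 h than at 3 h (adjusted p = 0.000692). The effect of mannitol was 4.80 larger at 24 h than at 12 h (adjusted p = 2.78e-05) and 7.28 larger at 72 h than at 3 h (adjusted p = 1.34e-08). The effect of NaCl was 7.49 larger at 24 h than at 12 h (adjusted p = 1.1e-11) and 6.65 larger at 72 h than at 3 h (adjusted p = 1.69e-07). Between 24 h and 72 h the effect of NaCl changed by -2.77 (adjusted p = 0.0498). That call was lost under 6 of the other settings, with adjusted p-values between 0.052 and 0.0652 there, and in 8 of 12 fits that left out a library.

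With the stressed leaves taken alone, without the mock, the change from 3 h to 72 h was -0.44 in heat (SE 0.22) and 0.10 in cold (SE 0.34, adjusted p = 0.812). In mannitol it was 4.44 (SE 0.56, adjusted p = 1.53e-09) and in NaCl 3.82 (SE 0.63, adjusted p = 1.08e-06). The NaCl replicates at 72 h had a coefficient of variation of 111%, which that SE does not measure. Over the same times mock leaves had 28, 22 and 26 counts at 3 h and 3, 2 and 5 at 72 h.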

How the results depend on the processing

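All values are log2 fold changes of HSP21, and those of heat against mock and the changes of the heat effect are descriptions. The alternatives left the direction and the call of most results as they were, and the cause of each change below was not tested unless the alternative itself shows it. The heat differences kept their direction in every alternative, and against the mock at 0 h they were 10.64 at 3 h, 11.27 at 24 h and 10.20 at 72 h. With that reference cold at 3 h (1.39), mannitol at 6 h (-1.71) and 12 h (-1.36) and NaCl at 12 h (-1.44) became calls, and cold at 6 h (0.90) and NaCl at 72 h (1.0) lost theirs. In DESeq2 mannitol at 6 h (-1.51) and 12 h (-1.25), NaCl at 12 h (-1.35) and the cold effect between 12 h and 24 h (1.69) became calls. Separate fits for each stress made calls of mannitol at 6 h (-1.48) and 12 h (-1.22). They also did so for the cold effect between 12 h and 24 h (1.72). In those fits the heat effect between 6 h and 12 h, a description, was -1.39. With library totals that heat effect was -1.48, and the cold effect between 12 h and 24 h was called at 2.15. Uncalled differences turned sign there in mock leaves at 12 h against 0 h (0.19) and in mannitol against cold at 72 h (-0.059). With the adjusted p-value alone, heat at 6 h against 3 h (-0.79) became a call. The NaCl effect between 24 h and 72 h lost its call with RLE scaling (-2.73), library totals (-2.71), separate fits (-2.73), no filter (-2.70), the filter of 1 CPM (-2.73) and the robust fit (-2.77).

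With the mock not subtracted, the steps of heat between 6 h and 12 h (-1.32) and between 24 h and 72 h (-1.07) and of cold between 6 h and 12 h (1.03) were called. The step of heat between 3 h and 72 h (-0.44) and those of cold between 3 h and 6 h (-0.50), 12 h and 24 h (-0.42) and 24 h and 72 h (-0.022) had the other sign, and cold between 3 h and 72 h (0.10) lost its call. This setting takes out the mock by construction. The count of genes with a correlation above 0.9 with HSP21 was 19, and was 0 by Spearman's correlation and 0 over the 21 groups without heat.

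With a replicate block, 39 results were called, against 37 without it, and no value moved by more than 0.03. These counts include heat against mock and the changes of the heat effect, which are descriptions. The cold effect between 12 h and 24 h (1.72) became a call. The heat effect between 6 h and 12 h (-1.42) passed the same limits, as a description, and no other call changed. The replicate numbers did not pair the samples: over 60 pairs of same-numbered libraries the deviations from the group means correlated between -0.28 and 0.29, and 5 pairs exceeded 0.1.

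Leaving out each library in turn gave a refit per library, and every comparison that used the library is counted singly here. Direction and call stayed as they were in 464 of these results, while 15 turned the sign of an uncalled difference, 6 gained a call and 19 lost one. The descriptions of heat against mock and of the heat effect are included in these counts. For heat against mock, a result counted as unchanged where its shift was below the combined SD of the replicates. The values against mock leaves lay between 0.75 and 1.28 for cold at 3 h, 0.81 and 1.29 for cold at 6 h, -2.11 and -1.5 for NaCl at 6 h, and -1.70 and -1.12 for NaCl at 12 h. In mock leaves against 0 h they lay between -0.42 and 0.055 at 6 h and between -2.59 and -2.01 at 24 h. Heat at 72 h against 24 h gave -1.13 to -0.98. Mannitol against cold at 72 h gave -0.33 to 0.44, NaCl against cold at 72 h -2.0 to -0.12, and NaCl against mannitol -0.52 to 0.90 at 3 h, -0.47 to 0.094 at 12 h and -2.16 to -0.18 at 72 h. The changes of an effect gave -0.39 to 0.079 for heat between 3 h and 6 h, -1.60 to -1.12 for heat between 6 h and 12 h, -0.18 to 0.36 for cold between 3 h and 6 h, 1.46 to 2.03 for cold between 12 h and 24 h, -0.16 to 0.55 for cold between 24 h and 72 h, and -4.19 to -2.30 for NaCl between 24 h and 72 h. Mannitol at 3 h gave -4.15 to -2.74. Counts were under 10 in every library of mannitol and NaCl leaves at 3 h and 6 h and of mock leaves from 24 h on, which limits the precision there.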
